A study of Homo sapiens with 24 samples.

Results

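The integrated stress response (ISR) was followed at the RNA level through 10 genes: the transcription factors ATF4, ATF3, ATF5 and DDIT3 and the effectors TRIB3, SESN2, ADM2, DDIT4, PMAIP1 and PPP1R15A. They were selected by symbol for their known role in this response, and all 10 were matched among the 58051 genes of the count tables. Earlier results of these data were known at that choice, among them those of TRIB3, SESN2 and ADM2. The rise of these genes is therefore not an independent finding. The data consist of 24 mRNA-seq libraries of 4 established human cancer cell lines, SW620 from a colorectal adenocarcinoma (COAD), BxPC-3 from a pancreatic adenocarcinoma (PAAD), LNCaP from a prostatic adenocarcinoma (PRAD) and HCC-70 from a triple-negative breast cancer (TNBC). For each cell line there were 3 control libraries and 3 libraries of cells that had received Ocoxin, a mixture of green tea, licorice and cinnamon extracts with amino acids, vitamins and minerals, for 48 h in low-serum medium. Fresh Ocoxin was added midway in the authors' viability assays, to which their account of this treatment refers. Ocoxin was diluted 1:700 for COAD and TNBC, 1:500 for PAAD and 1:50 for PRAD, the dilutions near the half-maximal loss of viability in each cell line. Each cancer type is therefore represented by a single cell line, RNA came from the cells that were still attached, and the labels do not say whether replicates were separate cultures, so that p-values measure the spread between these libraries only.

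In the ISR, the kinases EIF2AK1 (HRI), EIF2AK2 (PKR), EIF2AK3 (PERK) and EIF2AK4 (GCN2) respond to heme shortage or oxidative stress, double-stranded RNA, misfolded protein in the endoplasmic reticulum and amino acid shortage by phosphorylating the translation factor eIF2α. General translation then falls, whereas the mRNAs of ATF4, ATF5, DDIT3 and PPP1R15A are translated more efficiently through upstream open reading frames, and ATF4 with its partners switches on genes of amino acid transport and synthesis, further transcription factors and, in prolonged stress, genes of cell death. The amount of an mRNA does not report on this translational step or on the phosphorylation of eIF2α, and neither was measured here.

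Total counts per library lay between 25160757 and 39009959 in COAD, PAAD and TNBC and between 9063968 and 9520969 in PRAD. The PRAD libraries were counted with another setting, so that levels were compared between COAD, PAAD and TNBC only, and PRAD entered only through the ratio of Ocoxin to control. Levels are given in CPM, read counts divided by the scaled total of their library and brought to a common library size. Among markers of origin, the 6 colon epithelium genes summed to between 554 and 559 CPM in COAD controls and at most to 5.56 in controls of the other cell lines, and the 6 prostate luminal genes to between 1900 and 1990 CPM in PRAD and at most to 232 elsewhere. The pancreatic duct list (3700 to 4130 CPM in PAAD and 3050 to 3260 in TNBC) and the basal-like list (6100 to 6710 and 2580 to 2980) were high in both of these cell lines and did not separate them. Of the 5 luminal breast genes, PGR had 0 counts in TNBC controls and ESR1 stood at 6.85 CPM there. The others were higher, with ERBB2 at 248, GATA3 at 88.5 and FOXA1 at 89.6 CPM. This list summed to between 421 and 451 CPM in TNBC controls and between 422 and 461 in PRAD controls. In bulk RNA, a change in the level per cell and a change in which cells remained cannot be told apart.

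Part of the set rose with Ocoxin in every cell line, TRIB3 and ADM2 in all 4. With a gene called altered at an adjusted p under 0.05 (edgeR, adjusted over all genes tested), 5 of the 10 genes rose and 0 fell in COAD, where 1.47% of all genes tested were called higher and 1.09% lower. In PAAD 5 rose and 0 fell, beside 4.72% and 3.62% of all genes. In PRAD 5 rose and 0 fell, beside 2.4% and 0.58% of all genes. TNBC had 4 that rose and 1 that fell, beside 9.65% higher and 11.3% lower among all genes, the cell line with the largest share of all genes called. At an unadjusted p under 0.05, 6 genes were higher in COAD, 9 in PAAD and 8 in PRAD with 0 lower, and DESeq2 called 4, 8 and 6 higher and 0 lower. The estimated log2 fold change lay above 0 for 10 of 10 genes in COAD, PAAD and PRAD and for 5 of 10 in TNBC, and its median over the 10 genes was largest in PRAD (0.44), followed by COAD (0.34), PAAD (0.27) and TNBC (0.05), against medians over all genes between -0.01 and 0.01. All Ocoxin libraries lay above all controls for 8 genes in each of COAD, PAAD and PRAD, beside 10.2%, 13.6% and 15.2% of all genes. In TNBC they lay above for 5 genes and below for 3, beside 18.3% and 19.8% of all genes. ATF4 itself was called in none of the 4 cell lines by the edgeR fit that gave these counts. In PAAD it was called by other edgeR fits, among them that with the replicate block (adjusted p = 4.26e-05), and by DESeq2 (0.0224). When the matching replicate numbers of control and Ocoxin libraries were used as a block, the number of genes called in PAAD became 8. In PRAD 0 genes were called without Ocoxin replicate 2 or without any 1 of the 3 controls.

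**Figure D1:**
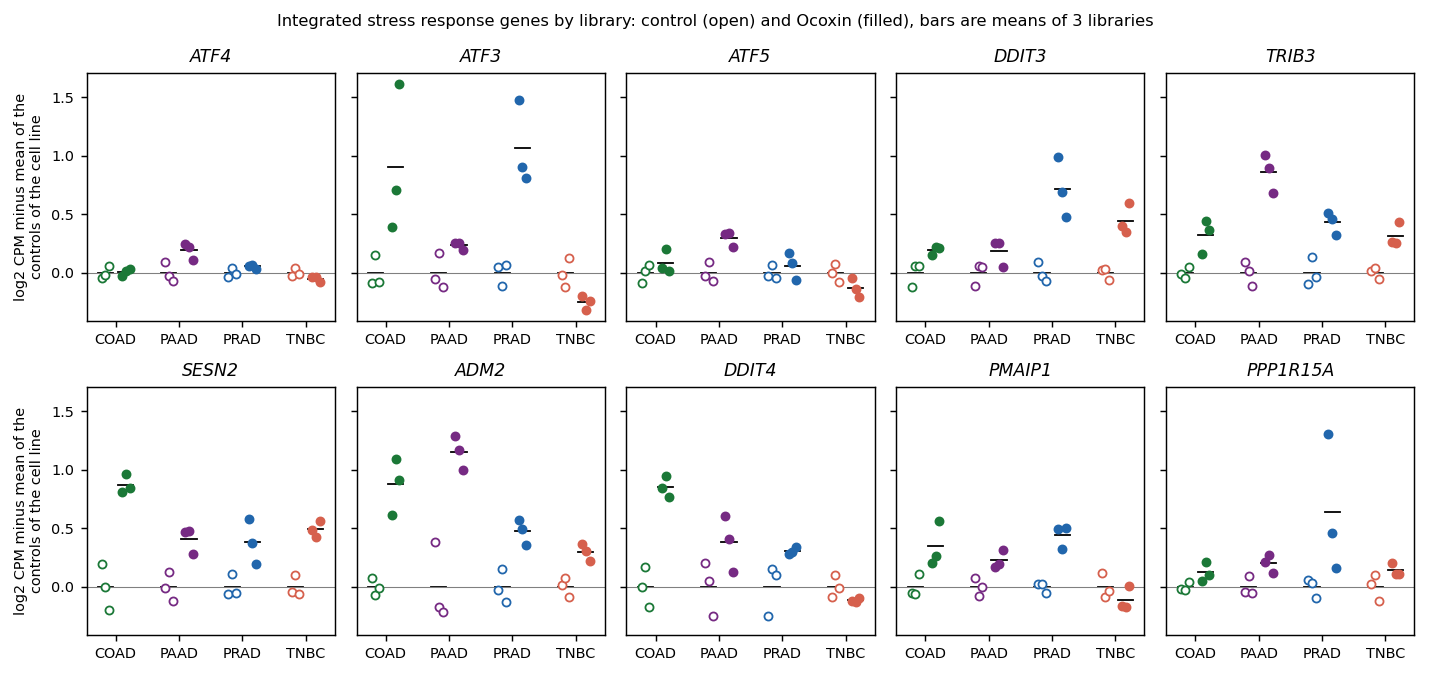
Log2 CPM of each gene in each library minus the mean of the 3 controls of the same cell line (y axis), for control (open circles) and Ocoxin libraries (filled circles) of the 4 cell lines (x axis), with bars at the means. ADM2, TRIB3 and SESN2 stood above the controls in every Ocoxin library of every cell line, ATF4 stayed within 0.251 of the control mean throughout, and a single PRAD Ocoxin library lay far above the others for PPP1R15A.

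**Figure D2:**
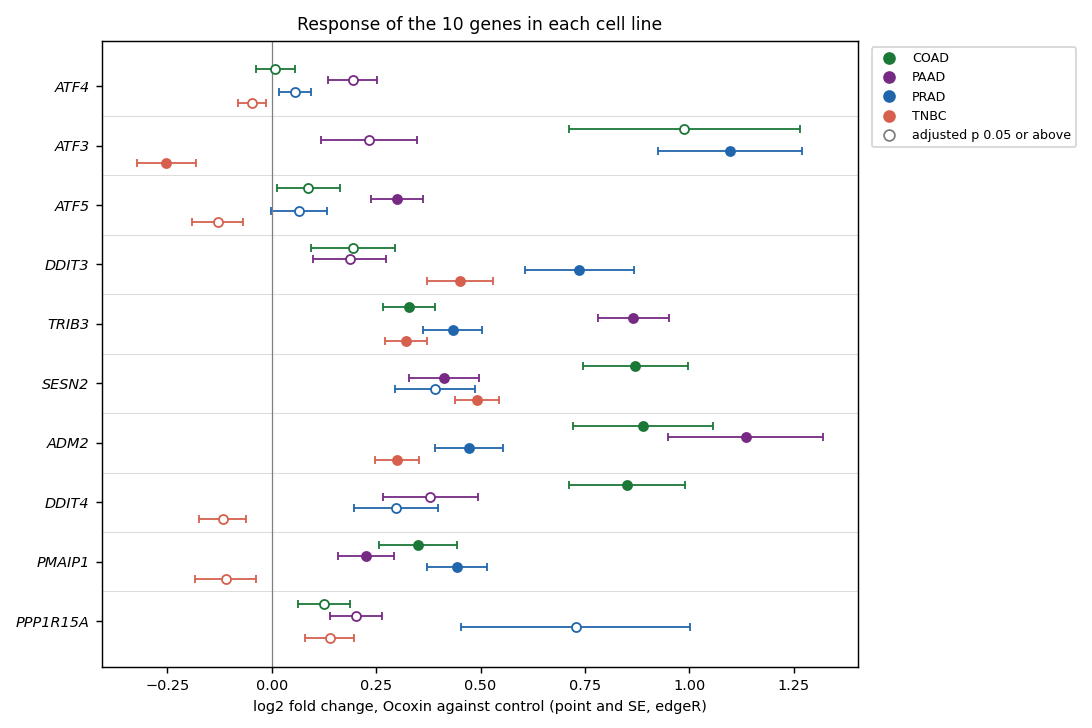
Log2 fold change of Ocoxin against control with its standard error (x axis) for the 10 genes (y axis) in the 4 cell lines (colors); filled points had an adjusted p under 0.05. TNBC (red) lay lowest for 7 of the 10 genes, and only TRIB3 and ADM2 were called in all 4 cell lines.

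ATF4, the transcription factor at the center of the response, had the most reads per exonic base of the 10 genes. The edgeR fit that gave the counts above called it in no cell line, although other edgeR fits and DESeq2 called it in PAAD. The gene (ENSG00000128272, chr22:39519695-39522685, plus strand, hg38) was measured over 2514 exonic bases. In COAD it stood at 392, 398 and 421 CPM in controls and at 396, 409 and 414 CPM with Ocoxin. PAAD controls had 440, 405 and 394 CPM and Ocoxin libraries 491, 481 and 445 CPM. The PAAD groups did not overlap, but the distance between them was small (log2 fold change 0.19 ± 0.058, SE; adjusted p = 0.0527), and it was called with the replicate block (adjusted p = 4.26e-05), by DESeq2 (0.0224), in 1 fit of all 24 libraries (0.00506), with no filter on low counts (0.0168) and with the trend of counts with gene length removed (0.0163). It was also called without PAAD Ocoxin replicate 3 (adjusted p = 0.0238) or without PAAD control replicate 1 (0.027). In PRAD the levels were 117, 124 and 120 CPM without and 125, 126 and 123 CPM with Ocoxin, and in TNBC 553, 580 and 560 CPM without and 552, 552 and 534 CPM with Ocoxin, changes of 0.06 ± 0.038 and -0.05 ± 0.034 on the log2 scale.

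ATF5, a relative of ATF4 that is induced in mitochondrial and proteotoxic stress, rose in PAAD only among the calls. It lies at chr19:49928702-49933935 (ENSG00000169136, plus strand), and 21.2% of its exonic bases are shared with IL4I1 and NUP62, so that reads in that stretch could not be assigned to it. PAAD controls had 94.7, 103 and 91.5 CPM and Ocoxin libraries 121, 122 and 112 CPM. All Ocoxin libraries were above all controls, 1.23-fold on average (log2 fold change 0.30 ± 0.062, adjusted p = 0.00736), although without PAAD Ocoxin replicate 2 the adjusted p was 0.0564. The levels overlapped in COAD (24 to 26.7 CPM in controls and 25.8 to 29.2 CPM with Ocoxin) and in PRAD (80.1 to 86.4 and 78.8 to 92.6 CPM). In TNBC they went from 40.1, 42.2 and 38.1 CPM to 38.9, 36.5 and 34.8 CPM, a change of -0.13 ± 0.061 that was called only with the replicate block (adjusted p = 0.159 without and 0.0493 with it).

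ATF3, an immediate stress-induced factor of the same family, had the widest range of responses. It spans chr1:212565334-212620777 (ENSG00000162772, plus strand) in 5 exon blocks. In PRAD the controls had 49.3, 44 and 49.8 CPM and the Ocoxin libraries 133, 89.5 and 83.4 CPM, each of them above every control. This was a 2.14-fold rise (log2 fold change 1.10 ± 0.17, adjusted p = 0.0257), and the call was lost without PRAD Ocoxin replicate 2 (0.0893) or without control replicate 1 (0.0607), 2 (0.0997) or 3 (0.0705), or with no filter on low counts (0.129). TNBC went the other way, with 31, 28.8 and 34.2 CPM in controls and 27.3, 25.2 and 26.4 CPM with Ocoxin. The fall was to 0.839 of the control level (log2 fold change -0.25 ± 0.070, adjusted p = 0.0228), the only decrease called among the 10 genes, and it was lost without TNBC Ocoxin replicate 2 (adjusted p = 0.0959), control replicate 1 (0.0629) or control replicate 3 (0.0888) and when all 24 libraries shared 1 fit (0.304).

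The level of ATF3 in COAD was low, with 42 to 112 counts per library. Controls had 1.36, 1.61 and 1.37 CPM and Ocoxin libraries 1.89, 2.37 and 4.43 CPM. All Ocoxin libraries were higher, but Ocoxin replicate 3 was far above the other two, and the change of 0.99 ± 0.28 did not pass (adjusted p = 0.0678). Without Ocoxin replicate 1 (adjusted p = 0.00393) or with no filter on low counts (0.00242) it passed, and without Ocoxin replicate 3 the change was 0.56 (adjusted p = 0.313). In PAAD the controls had 6.59, 7.68 and 6.25 CPM and the Ocoxin libraries 8.16, 8.13 and 7.80 CPM, a separation of the groups that did not pass either (0.23 ± 0.12, adjusted p = 0.245).

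Promoter windows of 300 bases, from 250 bases before to 50 bases after a gene start (RefSeq, GRCh38.p14), were available for all 10 genes, in 17 windows. They were searched on both strands for TGATGNAA, the core of the C/EBP-ATF response element (CARE) through which ATF4 acts, and for TGACGTCA, the cAMP response element (CRE) recognized by the CREB and ATF family; neither motif contains the other. ATF3 was the gene with a match to the CARE core, and PPP1R15A the gene with a match to the CRE, whereas 3.62% and 1.85% of the 35116 windows of all genes held these letters. The 2 windows with a match are shown with that of TRIB3, which rose in all cell lines and had no match in this window; capitals mark the match, which begins 191 bases before the gene start in ATF3 and 58 bases before it in PPP1R15A. The windows lie at chr1:212565157-212565456, chr19:48872171-48872470 and chr20:381056-381355, all on the plus strand.
ATF3: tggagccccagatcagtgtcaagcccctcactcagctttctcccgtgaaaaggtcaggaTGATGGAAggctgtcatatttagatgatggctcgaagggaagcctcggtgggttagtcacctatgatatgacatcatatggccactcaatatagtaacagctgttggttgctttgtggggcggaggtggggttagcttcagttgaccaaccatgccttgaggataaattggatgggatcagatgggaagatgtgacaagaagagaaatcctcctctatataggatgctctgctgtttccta
PPP1R15A: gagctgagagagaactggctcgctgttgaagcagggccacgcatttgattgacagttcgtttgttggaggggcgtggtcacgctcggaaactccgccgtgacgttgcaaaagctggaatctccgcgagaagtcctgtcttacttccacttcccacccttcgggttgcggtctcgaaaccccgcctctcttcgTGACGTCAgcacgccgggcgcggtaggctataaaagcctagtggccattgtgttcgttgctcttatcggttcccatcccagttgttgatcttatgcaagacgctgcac
TRIB3: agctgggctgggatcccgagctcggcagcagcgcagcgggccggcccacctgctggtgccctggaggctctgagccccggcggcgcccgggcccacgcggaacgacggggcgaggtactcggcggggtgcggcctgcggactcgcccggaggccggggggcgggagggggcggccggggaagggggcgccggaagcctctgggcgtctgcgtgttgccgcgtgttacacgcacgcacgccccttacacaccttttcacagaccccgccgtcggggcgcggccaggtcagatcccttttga
A shorter motif, the CCAAT box (CCAAT, or ATTGG on the other strand, in 34.6% of all windows), was present in the windows of ATF3, DDIT3, SESN2 and DDIT4. A match describes the letters of the window and is no evidence of binding, and the absence of a match is limited to these 300 bases.

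DDIT3 encodes CHOP, the factor that links a persistent response to cell death, and it rose in PRAD and TNBC. It lies at chr12:57516588-57520517 (ENSG00000175197, minus strand), with 28% of its 1266 exonic bases shared with MARS1. PRAD controls had 26.5, 24.4 and 23.7 CPM and Ocoxin libraries 49.3, 40.2 and 34.6 CPM. Every Ocoxin library was higher, 1.67-fold on average (log2 fold change 0.74 ± 0.13, adjusted p = 0.0327), and the call was lost when any PRAD library except Ocoxin replicate 3 was left out (adjusted p from 0.0631 to 0.122). In TNBC the levels were 16.4, 16.5 and 15.5 CPM in controls and 21.2, 20.5 and 24.4 CPM with Ocoxin, a 1.37-fold rise (0.45 ± 0.080, adjusted p = 0.0019) that was called whichever library was left out. COAD (9.23, 10.5 and 10.5 CPM against 11.2, 11.8 and 11.7 CPM) and PAAD (18.6, 20.9 and 20.8 CPM against 24, 23.9 and 20.7 CPM) showed changes of 0.19 ± 0.10 and 0.19 ± 0.088, which did not pass (adjusted p = 0.362 and 0.218).

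TRIB3, the pseudokinase tribbles 3 that CHOP and ATF4 induce and that restrains AKT signaling and ATF4 itself, rose in all 4 cell lines. The gene (ENSG00000101255) spans chr20:362835-397559 on the plus strand in 9 exon blocks. COAD controls had 87.1, 84.8 and 90.7 CPM and Ocoxin libraries 98.2, 119 and 113 CPM, a 1.26-fold rise (log2 fold change 0.33 ± 0.062, adjusted p = 0.00666). PAAD controls had 34.3, 32.6 and 29.7 CPM and Ocoxin libraries 64.7, 59.8 and 51.6 CPM. The groups were far apart in PAAD, where the 1.82-fold rise (0.87 ± 0.085, adjusted p = 1.12e-05) was the largest of the 4.

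In PRAD, TRIB3 stood at 101, 119 and 105 CPM without and at 154, 149 and 136 CPM with Ocoxin (1.35-fold, log2 fold change 0.43 ± 0.071, adjusted p = 0.029). TNBC controls had 177, 181 and 169 CPM and Ocoxin libraries 211, 210 and 238 CPM (1.25-fold, 0.32 ± 0.050, adjusted p = 0.000989). In none of the 4 cell lines did the groups overlap. The calls in PAAD and TNBC were kept without any 1 library. In COAD the call was lost without Ocoxin replicate 2 (adjusted p = 0.0699) or control replicate 2 (0.052), and in PRAD without any library except Ocoxin replicate 3 (from 0.0607 to 0.122).

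ADM2, which encodes the secreted peptide intermedin of the calcitonin family, was the other gene that rose in all cell lines. It lies at chr22:50481556-50486440 (ENSG00000128165, plus strand). COAD and PAAD expressed little of it, with 88 to 160 and 54 to 148 counts per library. COAD controls had 2.92, 2.63 and 2.73 CPM and Ocoxin libraries 4.22, 5.92 and 5.23 CPM, and PAAD controls 2.52, 1.71 and 1.66 CPM and Ocoxin libraries 4.74, 4.37 and 3.87 CPM. From these low levels the rise was 1.85-fold in COAD (log2 fold change 0.89 ± 0.17, adjusted p = 0.00582) and 2.20-fold in PAAD (1.14 ± 0.19, adjusted p = 0.00135), the largest change of any of the 10 genes in PAAD.

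The estimated response of ADM2 was smaller in the other two cell lines, of which TNBC held far more ADM2 RNA than COAD or PAAD. PRAD went from 111, 126 and 104 CPM to 168, 160 and 145 CPM (1.39-fold, log2 fold change 0.47 ± 0.082, adjusted p = 0.0305). TNBC went from 85.5, 88.8 and 79.5 CPM to 109, 105 and 98.7 CPM (1.23-fold, 0.30 ± 0.053, adjusted p = 0.00178). No Ocoxin library overlapped the controls of its cell line. The COAD call was lost without Ocoxin replicate 2 (adjusted p = 0.0695) and the PRAD call without any library except Ocoxin replicate 3 (0.0683 to 0.127).

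SESN2, a leucine sensor that holds mTORC1 in check when amino acids are short, rose in COAD, PAAD and TNBC. It spans chr1:28259527-28282491 (ENSG00000130766, plus strand) in 10 exon blocks. In COAD, 6.12, 5.32 and 4.66 CPM in controls became 9.37, 10.4 and 9.62 CPM with Ocoxin (1.83-fold, log2 fold change 0.87 ± 0.13, adjusted p = 0.000489). The estimate was lower in PAAD, from 27.9, 30.7 and 25.7 CPM to 38.9, 39.1 and 34.1 CPM (1.33-fold, 0.41 ± 0.084, adjusted p = 0.00652), and in TNBC, from 79.2, 87.4 and 78.4 CPM to 114, 110 and 120 CPM (1.41-fold, 0.49 ± 0.053, adjusted p = 6.64e-05). These 3 calls were kept without any 1 library. The PRAD libraries went from 99.4, 111 and 99.9 CPM to 155, 134 and 119 CPM without overlap, and the change of 0.39 ± 0.096 did not pass in edgeR (adjusted p = 0.0764). It was called with the replicate block (0.032), by DESeq2 (0.0128), in 1 fit of all 24 libraries (0.00701), with the length and GC trend removed (0.0249) and without Ocoxin replicate 3 (0.038).

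DDIT4, or REDD1, also restrains mTORC1, through the TSC complex, and responds to hypoxia and glucocorticoids as well as to ATF4. It lies at chr10:72273920-72276036 (ENSG00000168209, plus strand) and shares 41.2% of its exonic bases with the overlapping gene ENSG00000269926. It rose in COAD, from 4.15, 4.67 and 3.67 CPM to 7.44, 8.03 and 7.09 CPM (1.80-fold, log2 fold change 0.85 ± 0.14, adjusted p = 0.0018), without overlap and whichever library was left out. PAAD controls had 55.3, 49.6 and 40.3 CPM and Ocoxin libraries 72.9, 63.8 and 52.3 CPM. These groups overlapped, but the same-numbered pairs all moved upward, and the change of 0.38 ± 0.11 had an adjusted p of 0.0507 without and 3.54e-07 with the replicate block; it was also called by DESeq2 (0.0149), with DESeq2's size factors (0.0481), in 1 fit of all 24 libraries (0.0227), with no filter on low counts (3.77e-05), with the length trend removed (0.0346), and without Ocoxin replicate 3 (0.00382) or control replicate 1 (0.0328).

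In PRAD, DDIT4 had 40.5, 53.6 and 51.7 CPM in controls and 58.7, 59.3 and 61.1 CPM with Ocoxin (log2 fold change 0.30 ± 0.10, adjusted p = 0.152), and in TNBC 43, 48.9 and 45.4 CPM and 42, 41.8 and 42.7 CPM (-0.12 ± 0.056, adjusted p = 0.167). The TNBC Ocoxin libraries all lay below the controls by a small margin, a separation found for 19.8% of all genes in TNBC. Of 19 hypoxia genes, 15 fell and 0 rose in TNBC (median log2 fold change -0.67, against 0.01 over all genes), with CA9 falling most (-2.51 ± 0.13), and in PAAD 8 fell and 1 rose (median -0.26). In COAD 1 of 18 tested fell and 0 rose, and in PRAD none of 18 was called by edgeR (median -0.18), against 1 higher and 8 lower at an unadjusted p under 0.05 and 1 higher and 3 lower by DESeq2. Among all genes, 11.3% fell in TNBC, 3.62% in PAAD, 1.09% in COAD and 0.58% in PRAD. The part of the hypoxia genes in the level of DDIT4 was not tested.

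PMAIP1, which encodes the BH3-only death protein NOXA, rose modestly in COAD, PAAD and PRAD. It lies at chr18:59899948-59904306 (ENSG00000141682, plus strand). COAD went from 16.9, 16.8 and 18.9 CPM to 20.2, 21 and 25.9 CPM (log2 fold change 0.35 ± 0.093, adjusted p = 0.0485), PAAD from 57.3, 51.5 and 54.5 CPM to 61.1, 62.3 and 67.5 CPM (0.23 ± 0.067, adjusted p = 0.0473) and PRAD from 32.3, 32.3 and 30.6 CPM to 44.8, 39.8 and 44.9 CPM (0.44 ± 0.073, adjusted p = 0.0286). The groups were separate in all 3 cell lines, 1.27-fold, 1.17-fold and 1.36-fold apart. TNBC, at 30.8, 26.8 and 27.7 CPM without and 25.4, 25.2 and 28.5 CPM with Ocoxin, showed overlapping groups (-0.11 ± 0.073, adjusted p = 0.319).

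These PMAIP1 calls were close to the threshold. The COAD call was lost without Ocoxin replicate 2 (adjusted p = 0.101) or 3 (0.199) or control replicate 1 (0.187) or 2 (0.211), the PAAD call without any library except control replicate 1 (from 0.0514 to 0.205), and the PRAD call without any library (from 0.0573 to 0.0985). In COAD the call was also lost with DESeq2 (0.0556) and with the length trend removed (0.0884), and in PAAD in 1 fit of all 24 libraries (0.0804).

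PPP1R15A encodes GADD34, the phosphatase subunit that removes the phosphate from eIF2α and so ends the response, and its calls depended on the fit. It lies at chr19:48872392-48876057 (ENSG00000087074, plus strand). PRAD controls had 17.1, 16.8 and 15.4 CPM and Ocoxin libraries 40.6, 22.6 and 18.4 CPM. Ocoxin replicate 1 was by far the highest, and the change of 0.73 ± 0.27 did not pass (adjusted p = 0.186). In the same library ATF3, ATF5, DDIT3, SESN2, TRIB3 and ADM2 were also highest.

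PAAD (129, 142 and 128 CPM against 154, 160 and 144 CPM) and TNBC (56.6, 59.6 and 51.2 CPM against 64, 60.1 and 60.2 CPM) showed small separate groups for PPP1R15A, with log2 fold changes of 0.20 ± 0.062 and 0.14 ± 0.059. They did not pass in edgeR without the replicate block (adjusted p = 0.0555 and 0.119) and passed with it (0.000176 and 0.0123). In PAAD the change was also called by DESeq2 (0.0282), with no filter on low counts (0.0243), with the length trend removed (0.0306) and without Ocoxin replicate 3 (0.0276), and in both cell lines with the length and GC trend removed (0.0202 and 0.0368). COAD stood at 47.7, 47.3 and 49.5 CPM without and at 50, 55.9 and 51.7 CPM with Ocoxin (0.12 ± 0.063, adjusted p = 0.341).

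The order of the cell lines differed from gene to gene, with TNBC most often at the bottom. TNBC had the lowest log2 fold change for 7 of the 10 genes and the highest for 0, PAAD and PRAD each the highest for 4, and COAD for 2. TNBC ranked second of 4 for DDIT3 and SESN2. PAAD was highest for ATF4, ATF5, TRIB3 and ADM2, PRAD for ATF3, DDIT3, PMAIP1 and PPP1R15A, and COAD for SESN2 and DDIT4. Across the 10 genes, Spearman's rho of the log2 fold changes between 2 cell lines ranged from -0.164 for PAAD with PRAD to 0.564 for COAD with PAAD, values over 10 genes that are not independent and were given no test.

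Whether these orders exceeded the error was tested through the difference of the response between 2 cell lines, in a fit of all 24 libraries. COAD and TNBC received the same dilution of Ocoxin, and 4 of the 10 genes differed between them, beside 6.78% of all genes. COAD responded more in each: ATF3 by 1.24 ± 0.32 on the log2 scale (adjusted p = 0.0199), DDIT4 by 0.98 ± 0.19 (0.00127), ADM2 by 0.60 ± 0.16 (0.0175) and PMAIP1 by 0.47 ± 0.12 (0.0133). For TRIB3 the difference was 0.02 and for PPP1R15A it was close to 0, whereas DDIT3 (-0.24) and SESN2 (0.39 ± 0.14, adjusted p = 0.0773) did not pass. With the replicate block 6 genes differed, now including SESN2 (0.0426) and ATF5 (0.0407), and DESeq2 also called SESN2 (0.0335), whereas ATF3 did not pass when the counts of COAD, PAAD and TNBC were halved (0.0529).

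For the other pairs the dilution differed too, so that cell line and dilution cannot be told apart. Between PAAD and TNBC, 5 genes differed beside 4.01% of all genes, all with the larger response in PAAD: ADM2 by 0.84 ± 0.17 (adjusted p = 0.00193), TRIB3 by 0.55 ± 0.11 (0.00199), DDIT4 by 0.51 ± 0.15 (0.0463), ATF5 by 0.44 ± 0.090 (0.00271) and ATF4 by 0.25 ± 0.062 (0.014). ATF4 was thus called for the difference between PAAD and TNBC, although the edgeR fit of each cell line alone, without the block or another change, called it in neither. With the block PMAIP1 also differed (0.00418), which made 6 genes, and DDIT4 did not pass with DESeq2's size factors (0.0557) or without the PRAD libraries (0.0552). Between PRAD and TNBC, ATF3 (1.33 ± 0.22, adjusted p = 0.000727) and PMAIP1 (0.54 ± 0.13, 0.0119) responded more in PRAD, beside 3.59% of all genes, and the block brought the count from 2 to 4 with DDIT4 (0.00242) and PPP1R15A (0.0321), while PMAIP1 did not pass with the length trend removed (0.052).

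Between PAAD and PRAD, 3 genes differed beside 3.29% of all genes. ADM2 (0.69 ± 0.17, adjusted p = 0.017) and TRIB3 (0.46 ± 0.11, 0.0185) responded more in PAAD and DDIT3 more in PRAD (-0.52 ± 0.15 for PAAD minus PRAD, 0.0389, and 0.0731 with the length trend removed). With the block 6 genes differed, now including ATF3 (0.00248), ATF5 (0.0215) and ATF4 (0.0231). Between COAD and PAAD edgeR called 1 gene, TRIB3, with a difference of -0.53 ± 0.11 (adjusted p = 0.00524) and the larger response in PAAD, beside 3.44% of all genes. With the block 4 genes differed there, now including ATF4 (0.00293), DDIT4 (0.00621) and SESN2 (0.0293), and DESeq2 also called SESN2 (0.018). Between COAD and PRAD edgeR called 0 genes, beside 0.832% of all genes, and DESeq2 called 1 (SESN2, adjusted p = 0.0236); the 5 with an unadjusted p under 0.05 are those of DDIT3, SESN2, ADM2, DDIT4 and PPP1R15A.

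**Figure D3:**
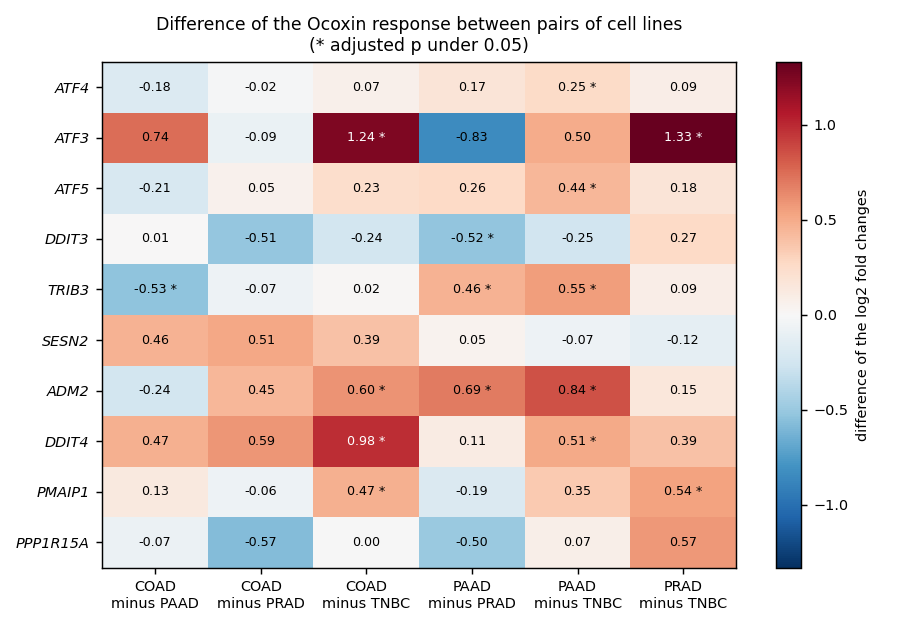
Difference of the log2 fold change (color and printed value) between the 2 cell lines of each column for the 10 genes (rows); positive values mean a larger response in the cell line named first and stars an adjusted p under 0.05. The 11 stars of the 3 columns against TNBC are all on positive values.

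The level of the 10 genes without Ocoxin differed widely between cell lines. Levels were put on a scale that corrects for gene length (RPKM, CPM divided by the exonic length in kilobases). For RPKM the 18 libraries of COAD, PAAD and TNBC were scaled together, whereas the CPM above were scaled within each cell line. ATF4 was highest in COAD, PAAD and TNBC, at 146 ± 7.24 (SD, n = 3), 176 ± 11.2 and 229 ± 5.73 RPKM. The lowest were ATF3 in COAD, at 0.326 ± 0.0298 RPKM, and ADM2 in PAAD, at 0.494 ± 0.125 RPKM. Control levels differed between COAD and PAAD for 9 of the 10 genes, between COAD and TNBC for 10 and between PAAD and TNBC for 9, beside 77.3%, 81.6% and 75.3% of all genes, so that a difference between these cell lines was the rule for all genes.

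TNBC had the highest control level of ATF4, ATF3, TRIB3, SESN2 and ADM2. ADM2 reached 20.2 ± 1.12 RPKM in TNBC against 0.588 ± 0.0305 in COAD (log2 ratio of COAD to TNBC -5.10 ± 0.11), SESN2 24.2 ± 1.46 against 8.73 ± 0.782 in PAAD and 1.42 ± 0.181 in COAD, and TRIB3 52.3 ± 1.75 against 23.2 ± 1.04 in COAD and 10.1 ± 0.787 in PAAD. PAAD had the highest level of ATF5 (35 ± 2.11 RPKM), DDIT3 (17 ± 1), PMAIP1 (26.1 ± 1.49) and PPP1R15A (46.1 ± 2.72). DDIT4 did not differ beyond the spread between PAAD and TNBC (25.3 ± 4.11 and 22.7 ± 1.48 RPKM, log2 ratio 0.15 ± 0.10, adjusted p = 0.184) and lower in COAD (1.84 ± 0.206). COAD had the lowest level of 8 genes; for TRIB3 PAAD was lowest, and for ADM2 COAD and PAAD did not differ beyond their spread (log2 ratio 0.25 ± 0.16, adjusted p = 0.15).

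**Figure D4:**
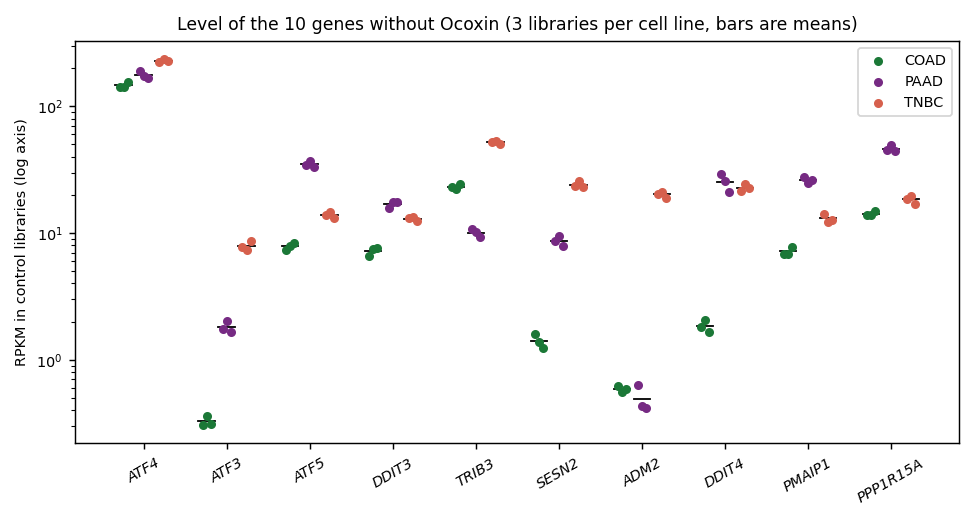
RPKM of the 10 genes (x axis) in the 3 control libraries of COAD, PAAD and TNBC, on a log y axis, with bars at the means. ATF4 had at least 141 RPKM in every library, whereas SESN2 and DDIT4 were more than 10 times lower in COAD than in TNBC.

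With the treatment left in, the 10 genes correlated within a cell line where most of them rose. After the log2 CPM of each gene was centred on the mean of its cell line, Pearson's r over the 24 libraries was above 0 for 45 of the 45 pairs of genes and above 0.5 for 33, with a median of 0.569. These values share the treatment, the libraries and their scaling, and they are given as a description. Because centring on the cell line keeps the treatment, genes that change in the same direction correlate. For pairs of other genes r was not computed under either centring, so co-movement particular to these 10 genes was not tested. TRIB3 and ADM2 were the closest pair (0.927), followed by ATF3 and PMAIP1 (0.85), DDIT3 and PPP1R15A (0.829) and SESN2 and ADM2 (0.827), and ATF4 and DDIT3 the least close (0.239). ADM2 (0.854), TRIB3 (0.844) and SESN2 (0.829) followed the mean of the other 9 genes most, and ATF4 (0.578) least.

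Over the 6 libraries of a single cell line, controls and Ocoxin together, the median r of the 45 pairs was 0.742 in COAD, 0.83 in PAAD and 0.824 in PRAD but -0.309 in TNBC, where 19 pairs were above 0. In TNBC the genes that rose (DDIT3, TRIB3, SESN2, ADM2) and those whose Ocoxin libraries all lay below the controls (ATF4, ATF3, DDIT4) moved apart, although only ATF3 was called lower. Of all genes in TNBC, 19.8% had every Ocoxin library below every control, so that such a separation was common there. Centred instead on the mean of control or Ocoxin libraries, which takes out the treatment, the median over the 24 libraries was 0.387 with 39 pairs above 0. The closest pairs were then DDIT3 with PPP1R15A (0.773) and ATF4 with ADM2 (0.746), and PMAIP1 ran against DDIT4 (-0.361), ATF5 (-0.298) and SESN2 (-0.259). Both values for DDIT3 with PPP1R15A include PRAD Ocoxin replicate 1, and r without it was not computed. That library stood 1.303 above the control mean for PPP1R15A, against 0.461 and 0.161 in Ocoxin replicates 2 and 3. For DDIT3 it stood 0.987 above, against 0.695 and 0.48.

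**Figure D5:**
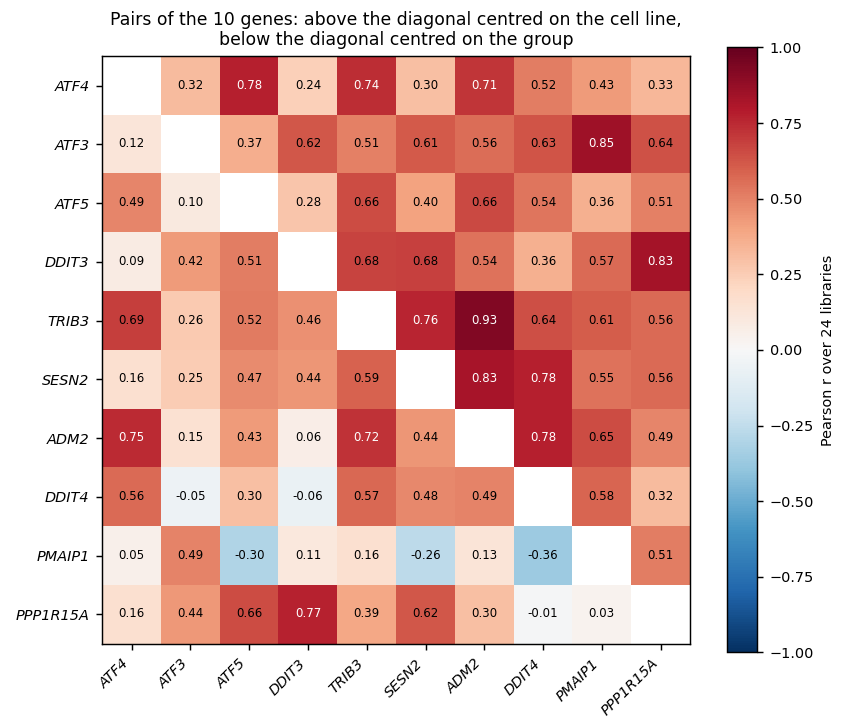
Pearson's r between pairs of the 10 genes over 24 libraries (color and printed value), above the diagonal with log2 CPM centred on the mean of the cell line and below it centred on the mean of each group of 3 libraries. All values above the diagonal are positive (0.239 to 0.927), and below it the row of PMAIP1 holds the 3 most negative.

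The genes outside the set whose pattern was most like its mean were looked up among 11586 genes with a mean of at least 1 CPM in each cell line. By Pearson's r over the 24 libraries after centring on the cell line they were SQSTM1 (0.93), the autophagy receptor p62, MT1F (0.919), CHAC1 (0.906), CEBPB (0.899), MT2A (0.893), HMOX1 (0.878), FTH1 (0.876), RBCK1 (0.87), ABTB1 (0.864) and FTH1P7 (0.849). MT1F and MT2A encode metal-binding metallothioneins, HMOX1 the heme-degrading heme oxygenase 1 and FTH1 the heavy chain of the iron store ferritin. Values of the metallothioneins, FTH1 and its pseudogene FTH1P7 are uncertain because reads are shared with near-identical copies.

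CHAC1, an ATF4 target whose product degrades glutathione, was called higher in all 4 cell lines. It went from 5.05 ± 0.774 to 7.92 ± 0.434 CPM in COAD (log2 fold change 0.645 ± 0.14, adjusted p = 0.0116), from 10.1 ± 1.45 to 26.2 ± 2.45 CPM in PAAD (1.38 ± 0.11, 1.23e-06), from 29.6 ± 4.84 to 60.5 ± 4.04 CPM in PRAD (1.03 ± 0.11, 0.0126) and from 41.5 ± 2.93 to 48 ± 2.17 CPM in TNBC (0.21 ± 0.061, 0.0283). Its estimates had the order of those of TRIB3, from PAAD through PRAD and COAD to TNBC. For TRIB3 the differences among PRAD, COAD and TNBC did not pass (COAD minus PRAD -0.07 ± 0.11, PRAD minus TNBC 0.09 ± 0.11). Its promoter window at chr15:40953221-40953520 (plus strand) holds the CARE core on the minus strand, 209 bases before the gene start, and is shown for comparison with those above, the match in capitals.
CHAC1: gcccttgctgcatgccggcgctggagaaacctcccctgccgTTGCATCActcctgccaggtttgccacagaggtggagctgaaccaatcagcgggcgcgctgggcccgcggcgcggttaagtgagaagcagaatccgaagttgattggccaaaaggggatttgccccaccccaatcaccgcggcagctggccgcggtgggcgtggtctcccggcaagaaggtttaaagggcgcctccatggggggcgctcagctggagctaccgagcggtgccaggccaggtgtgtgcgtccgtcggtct

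The rest of the pathway was described through lists from textbook knowledge, written with results of these data on CHAC1, ADM2, SESN2 and TRIB3 known. Their counts are to be read beside the shares of all genes called. These were 1.47% higher and 1.09% lower in COAD and 4.72% and 3.62% in PAAD. In PRAD they were 2.4% and 0.58%, and in TNBC 9.65% and 11.3%. Of 21 genes of the ISR sensors and the eIF2 machinery, 0 were called by edgeR or DESeq2 in COAD and PRAD, although 3 in each had an unadjusted p under 0.05, while 1 rose and 1 fell in PAAD, and 4 rose and 3 fell in TNBC, with medians between -0.05 and 0.02. EIF2AK1 was at 535 ± 7.1 CPM in TNBC controls and 547 ± 11.1 with Ocoxin and none of EIF2AK1, EIF2AK2 and EIF2AK3 was called in any cell line. EIF2AK2 in TNBC changed by 0.26 ± 0.18 (adjusted p = 0.373) and was called with the replicate block (1.38e-06). EIF2AK4 rose in TNBC, from 54.7 ± 1.38 to 69.3 ± 5.58 CPM (log2 fold change 0.34 ± 0.059, adjusted p = 0.00155), as did PPP1R15B, the constitutive counterpart of PPP1R15A, from 190 ± 3.24 to 211 ± 4.68 CPM (0.15 ± 0.036, 0.0116).

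EIF2AK4 had the largest called increase of this list in TNBC, and EIF2B2, a subunit of the exchange factor eIF2B, in PAAD (0.31 ± 0.069). The largest called decreases were those of DNAJC3, an inhibitor of the eIF2 kinases, in PAAD (-0.20 ± 0.057) and of the adaptor NCK1 in TNBC (-0.16 ± 0.041). Among 23 partners and co-regulators of ATF4, 2 rose in COAD, 7 in PAAD and 2 of 20 tested in PRAD with 0 falling, and in TNBC 4 rose and 5 fell. CEBPB, which pairs with ATF4 on its target sites, rose in COAD (6.74 ± 0.759 to 9.68 ± 1.11 CPM), PAAD (73.2 ± 5.74 to 91.4 ± 7.15 CPM) and PRAD (18.4 ± 2.8 to 30.3 ± 2.6 CPM, log2 fold change 0.71 ± 0.13) and had 66 ± 4.17 and 69.9 ± 3.24 CPM in TNBC. The largest increases were those of CEBPA in COAD (0.60 ± 0.12), the stress regulator NUPR1 in PAAD (0.715 ± 0.15) and CREB3L2 in TNBC (0.34 ± 0.062), and the AP-1 subunit JUN fell most, in TNBC (-0.70 ± 0.092).

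Of the other targets of ATF4 or CHOP, 5 of 54 tested rose and 1 fell in COAD, 30 of 53 rose and 3 fell in PAAD, 10 of 53 rose and 0 fell in PRAD, and 21 of 54 rose and 3 fell in TNBC. Their medians were 0.02, 0.30, 0.12 and 0.08 on the log2 scale. The COAD count of 5 that rose became 2 without Ocoxin replicate 2 or without control replicate 1, 8 without Ocoxin replicate 1 and 11 with the replicate block, which also brought the count that fell from 1 to 6. COAD had the lowest median in this list, whereas TNBC had the lowest among the 10 genes. The amino acid transporters SLC7A11, SLC7A5 and SLC6A9, the mitochondrial enzyme PCK2 and the tryptophanyl-tRNA synthetase WARS1 rose in PAAD, PRAD and TNBC. In COAD the edgeR fit that gave these counts called none of them. SLC7A11 was called there with the replicate block (log2 fold change 0.25 ± 0.092, adjusted p = 0.17 without and 0.0217 with it).

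SLC7A11, the cystine importer, went from 208 ± 19.6 to 315 ± 11 CPM in PAAD (log2 fold change 0.60 ± 0.065), from 262 ± 42.6 to 441 ± 38 CPM in PRAD (0.75 ± 0.12) and from 44.7 ± 2.84 to 72.5 ± 5.82 CPM in TNBC (0.70 ± 0.065), with 17.8 ± 1.9 and 21.1 ± 2.04 CPM in COAD. SLC6A9, a glycine transporter, rose by 0.95 ± 0.072 in PAAD, 0.89 ± 0.084 in PRAD and 0.23 ± 0.040 in TNBC. SLC7A1, a transporter of cationic amino acids, rose in PAAD (0.22 ± 0.058) and TNBC (0.25 ± 0.037) and fell in COAD (-0.21 ± 0.054). GDF15, a secreted stress cytokine, rose in COAD (0.61 ± 0.072), PAAD (0.78 ± 0.12) and TNBC (1.29 ± 0.27). The largest increases of the list were those of INHBE, a subunit of activin E, in COAD (2.32 ± 0.43 to 6.51 ± 0.652 CPM, 1.48 ± 0.17), the folate enzyme ALDH1L2 in PAAD (1.71 ± 0.40, from 0.266 ± 0.143 CPM), CHAC1 in PRAD and GDF15 in TNBC, and the oxidase ERO1A fell most in PAAD (-0.27 ± 0.053) and TNBC (-0.37 ± 0.048).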

How the data were processed

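mRNA of 24 libraries was sequenced. The authors used fastp for trimming, STAR for alignment to hg38, picard to discard PCR duplicates and featureCounts to assign reads to exons, ignoring strand. The deposited values are raw counts per gene, with PRAD in a table of its own. Genes with 2 counts were 2.69 to 3.28 times as frequent as genes with 1 in COAD, PAAD and TNBC and 0.471 to 0.501 times in PRAD, as when both mates of a pair were counted in those but not in PRAD. Duplicate removal without molecular identifiers compresses high counts, exonic bases shared by 2 genes lose their reads, and the 37 mitochondrial genes hold 0 counts.

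Counts were analysed in R 4.3.3 with edgeR 4.0.16 (filterByExpr, TMM, robust quasi-likelihood F-test, two-sided, Benjamini-Hochberg over all genes tested), each cell line alone. Differences between cell lines were interaction contrasts in 1 fit of 24 libraries, and control levels were compared in a fit of 18. The SE of an edgeR log2 fold change was derived from the test, as its absolute value divided by the square root of F. DESeq2 1.42.0 was an alternative. The fits were tested on simulated counts with a common spread for all genes, no pairing of libraries and no deviating library. Recovery was required only for changes larger than most of those called here. That test cannot speak to calls that depend on pairing or on 1 library. Same-numbered libraries deviated together in PAAD (lowest r 0.26), PRAD (0.165) and TNBC (0.26), which paired them, and not in COAD (0.0508). The pairing was less clear in TNBC, where r between different numbers reached 0.302. There 4 of 6 libraries correlated best with their own number, as in COAD. For differences with COAD, the block also used the COAD numbers. All replicates differed by more than counting noise. The 10 genes and the lists (sensors, partners, targets, IRE1 and ATF6 arms, p53, hypoxia, mTORC1 inhibitors, families) were chosen with earlier results of these data known. From a list, the text names genes called in at least 3 cell lines, the largest called increase and decrease per cell line, the eIF2 kinases, PPP1R15B and CHAC1.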

Additional observations from a re-analysis of the deposited data

Results flagged for a closer look

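The responses of 15 gene and cell line pairs differed between 2 cell lines by the test of the difference itself, and they are given here with what happened when each of the 12 libraries of both cell lines was left out in turn. Kept without any of the 12 were TRIB3 for COAD minus PAAD (-0.53), DDIT4 for COAD minus TNBC (0.98), ATF5, TRIB3 and ADM2 for PAAD minus TNBC (0.44, 0.55 and 0.84), and ATF3 and PMAIP1 for PRAD minus TNBC (1.33 and 0.54).

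For COAD minus TNBC, ATF3 (1.24) was kept in 10 of 12, ADM2 (0.60) in 9 and PMAIP1 (0.47) in 11. ATF4 for PAAD minus TNBC (0.25) was kept in 9 of 12, with an adjusted p of at most 0.0565. DDIT4 for PAAD minus TNBC (0.51) was kept in only 2 of 12. For PAAD minus PRAD, TRIB3 (0.46) was kept in 9 of 12, ADM2 (0.69) in 8 and DDIT3 (-0.52) in 5, and when PRAD counts were corrected for reads with the same start, TRIB3 (0.35, adjusted p = 0.131) and ADM2 (0.59, adjusted p = 0.0683) no longer passed. That correction was chosen after seeing the data. With 3 libraries per group no library was tested as an outlier.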

How the results depend on the processing

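No fold change or difference of the 10 genes that was called in either fit turned its sign under any alternative, and 59 of 1980 values that were called in neither did. Of the counts of genes called, 5 in PAAD became 8 with DESeq2, with no filter on low counts, with the length trend removed, with the length and GC trend removed and with the replicate block, and 9 with the length and GC trend removed and the replicate block together. In PRAD 5 became 8 with the length and GC trend removed and the replicate block together and 0 at an adjusted p under 0.01. The COAD numbers were not taken as pairs; with the block ATF3 was called there (adjusted p = 0.00227), and 4 of 6 COAD libraries correlated best with their own number.

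For the differences between cell lines, 1 gene for COAD minus PAAD became 2 with DESeq2, its size factors, at least 10 counts in every library, the length trend removed or the 18 libraries without PRAD, 3 with the length and GC trend removed and 4 with no filter or the replicate block. For COAD minus PRAD, 0 became 1 with DESeq2, the length trend removed or PRAD counts corrected for reads with the same start, 2 with the length and GC trend removed and 3 with no filter or the replicate block. For PAAD minus PRAD, 3 became 5 with no filter and 6 with the replicate block; for PRAD minus TNBC, 2 became 1 with the length trend removed and 4 with no filter or the replicate block. At an adjusted p under 0.01 the counts were 1 for COAD minus TNBC, 0 for PAAD minus PRAD, 3 for PAAD minus TNBC and 1 for PRAD minus TNBC. The cause of these changes was not tested. Counts of control levels kept within 9 and 10.

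Leaving out 1 library gave 2 (without Ocoxin replicate 2) to 6 genes in COAD, 3 (without Ocoxin replicate 2) to 7 in PAAD, 0 to 5 in PRAD and 4 to 5 in TNBC, and for the differences 1 to 3 for COAD minus PAAD, 0 to 2 for COAD minus PRAD, 1 (without COAD Ocoxin replicate 3) to 4 for COAD minus TNBC, 0 (without PAAD control replicate 3) to 5 for PAAD minus PRAD, 3 to 5 for PAAD minus TNBC and 2 to 3 for PRAD minus TNBC. Low counts of ATF3 and ADM2 in COAD and PAAD limit their precision. The length and GC corrections and the correction for reads with the same start were chosen after seeing the data, as was no other alternative.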

Other observations

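The counts in this section are to be read beside the shares of all genes called. These were 1.47% higher and 1.09% lower in COAD and 4.72% and 3.62% in PAAD. In PRAD they were 2.4% and 0.58%, and in TNBC 9.65% and 11.3%. The other arms of the unfolded protein response were read through 25 genes of the IRE1 and ATF6 arms. Of these, 0 were called by edgeR in COAD, where 3 had an unadjusted p under 0.05 and DESeq2 called 2, all lower, whereas 1 rose and 5 fell in PAAD, 4 rose and 0 fell in PRAD, and 5 rose and 10 fell in TNBC, with medians of -0.06, -0.11, 0.08 and -0.09 on the log2 scale. DNAJB9, a co-chaperone of the endoplasmic reticulum, rose in PAAD (0.27 ± 0.070) and PRAD (0.705 ± 0.11), and ERN1, which encodes the sensor IRE1α, in TNBC (0.44 ± 0.064). HSP90B1 fell most in PAAD (-0.34 ± 0.049) and MANF in TNBC (-0.53 ± 0.057).

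Of the targets of p53, which also controls PMAIP1 and SESN2, 3 of 22 tested rose in COAD, 4 of 23 in PAAD and 2 in PRAD with 0 falling, and in TNBC 2 rose and 2 fell. The TNBC counts were near the shares of all genes there, 9.65% higher and 11.3% lower. CDKN1A, the cell cycle inhibitor p21, rose in COAD (6.69 ± 0.165 to 9.67 ± 0.909 CPM) and PAAD (153 ± 12.7 to 185 ± 8.02 CPM) and fell in TNBC (48.1 ± 2 to 21.5 ± 1.22 CPM, log2 fold change -1.16 ± 0.061). The part of p53 in the levels of PMAIP1 and SESN2 was not tested. TP53I3 had the largest increase in PRAD (0.66 ± 0.12). Of 9 inhibitors of mTORC1 and sestrins other than SESN2 and DDIT4, 0 were called by edgeR or DESeq2 in COAD (7 tested, 2 with an unadjusted p under 0.05) and PRAD (1 with such a p), 2 rose and 1 fell in PAAD, and 3 rose in TNBC. TSC2 rose in PAAD (0.29 ± 0.067) and TNBC (0.40 ± 0.057), and SESN3 fell in PAAD (-0.27 ± 0.074). Among 15 relatives of TRIB3, PMAIP1, ADM2 and PPP1R15A, 0 of 9 tested were called by edgeR or DESeq2 in COAD (3 with an unadjusted p under 0.05), 2 rose in PAAD, led by BMF (0.80 ± 0.10), 1 in PRAD (HRK, 1.59 ± 0.29, from 0.648 ± 0.0998 CPM, not called by DESeq2), and in TNBC 1 rose and 2 fell, with ADM falling from 4.67 ± 0.315 to 1.57 ± 0.21 CPM beside the rise of ADM2.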
